A study of Mus musculus with 12 samples.

Results

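The genes described here are 37 of the 43253 named gene symbols in an RNA-seq table of thioglycolate-elicited peritoneal macrophages (PMφs), taken as a fixed list. That list was chosen with earlier results of these data known, so counts of members called beside the share of all genes are descriptions only. The 37 genes comprise 20 replication members, whose products license, unwind, copy or supply DNA in S phase, and 17 mitotic members, whose products act from G2 to cytokinesis. PMφs are monocyte-derived macrophages that collect in the mouse peritoneal cavity after thioglycolate. Wild-type C57BL/6J mice of both sexes, 8 to 12 wk old, received 1 ml of 4% thioglycolate, cells were collected by lavage on day 4, pooled over up to 10 mice and split into 4 groups, and adherent cells were used after 18 h. Control PMφs received neither agent, oxLDL PMφs were cultured with 100 µg/ml human oxidized low-density lipoprotein for 24 h, LPS PMφs received 10 ng/ml lipopolysaccharide, and oxLDL+LPS PMφs received both. For how long LPS was given to these libraries is not stated in the sources used here. In the study's methods oxLDL came first, and LPS followed for hours rather than days. Each group had 3 libraries, numbered 1 to 3, and nothing in the labels says that they came from separate mice, so the p-values measure only the spread between these libraries.

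In a dividing cell, cyclin D kinases and then cyclin E kinases phosphorylate the retinoblastoma family, E2F factors are released, and the genes for the replicative helicase, its loaders and the enzymes of nucleotide supply are transcribed. Later in the cycle the mitotic cyclins, kinases and spindle proteins follow, many of them through promoters that carry CCAAT boxes and a cell cycle genes homology region (CHR), to which the DREAM and MuvB complexes bind. Mature macrophages in culture mostly do not divide, and several replication proteins also serve DNA repair and nucleotide balance in resting cells. In bulk RNA, fewer cycling cells and less RNA per cell cannot be told apart.

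The proximal promoters of the members are shown because the letters of these elements were found at different shares in the classes. RefSeq promoters of GRCm38.p6, from 250 bases before to 50 bases after a start, were at hand for 31 of the 37 members (17 replication, 14 mitotic). In 27 of them the start lay within 250 bases of the 5′ end of the GENCODE gene, and for Mcm7, Dut, Cdc6 and E2f1 it lay 539, 325, 350 and 466 bases inside the gene. Searched on both strands, E2F-type letters were TTTCCCGC, TTTGGCGC, TTTCGCGC and TTTGCCGC, CHR-type letters were TTTGAA and TTCGAA (which reads the same on both strands), and the CCAAT box was CCAAT. The E2F type was found in 7 of 17 replication members (41.2%: Cdc6, Cdt1, E2f2, Mcm3, Mcm5, Mcm6 and Mcm7) and in 1 of 14 mitotic members (7.14%, Cdk1), against 2.32% of 27025 promoters of that length. The CHR type was found in 2 of 17 replication members (11.8%, Mcm2 and Mcm7) and in 11 of 14 mitotic members (78.6%), against 19.4% of all. CCAAT was found in 10 of 17 (58.8%) and 13 of 14 (92.9%), against 37.9%. Over the 27 windows near the start of the gene, the replication members held the E2F type in 5 of 13, the CHR type in 1 of 13 and CCAAT in 9 of 13, and the mitotic members all lie among the 27. These matches are descriptions of letters, and no binding was measured here.

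The promoters printed are those of the 2 replication and the 2 mitotic members with the smallest p in LPS against control among windows near the start of the gene (E2f2, Ccne1, Arhgap19 and Mki67), and that of Cdk1, the 1 such member with both E2F-type and CHR-type letters, chosen after its letters were seen. E2f1 had a smaller p than Ccne1, but its window (chr2:154569377-154569676 on the minus strand) lies inside the gene. It held none of the letters. The Mcm7 window (chr5:138171834-138172133 on the minus strand) lies inside the gene too and held letters of all 3 kinds. Neither is printed. Each sequence runs 5′ to 3′ on the strand of the gene, with matched letters in capitals, and CCAAT on the other strand reads ATTGG. The E2f2 window (chr4:136172024-136172323 on the plus strand, the first of 2 RefSeq entries) holds an E2F-type match and a CCAAT box. The Ccne1 window (chr7:38107441-38107740 on the minus strand) holds none of the letters.

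E2f2: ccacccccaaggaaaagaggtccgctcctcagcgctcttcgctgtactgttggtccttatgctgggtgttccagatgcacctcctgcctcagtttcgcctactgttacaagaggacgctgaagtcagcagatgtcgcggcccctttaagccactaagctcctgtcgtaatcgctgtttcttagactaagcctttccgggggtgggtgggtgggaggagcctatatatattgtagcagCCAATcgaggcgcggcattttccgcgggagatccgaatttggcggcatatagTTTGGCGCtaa
Ccne1: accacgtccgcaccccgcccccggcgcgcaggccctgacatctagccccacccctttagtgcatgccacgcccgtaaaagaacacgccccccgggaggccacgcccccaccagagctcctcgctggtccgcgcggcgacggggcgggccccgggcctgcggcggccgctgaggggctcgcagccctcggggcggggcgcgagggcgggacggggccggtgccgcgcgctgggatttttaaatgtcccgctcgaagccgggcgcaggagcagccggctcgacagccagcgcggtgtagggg

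The Arhgap19 window (chr19:41802035-41802334 on the minus strand) holds 1 CHR-type match and 4 CCAAT boxes. The Mki67 window (chr7:135716330-135716629 on the minus strand) holds 2 CHR-type matches and 3 CCAAT boxes. The Cdk1 window (chr10:69352863-69353162 on the minus strand) holds 1 E2F-type match, 2 CHR-type matches and 3 CCAAT boxes.

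Arhgap19: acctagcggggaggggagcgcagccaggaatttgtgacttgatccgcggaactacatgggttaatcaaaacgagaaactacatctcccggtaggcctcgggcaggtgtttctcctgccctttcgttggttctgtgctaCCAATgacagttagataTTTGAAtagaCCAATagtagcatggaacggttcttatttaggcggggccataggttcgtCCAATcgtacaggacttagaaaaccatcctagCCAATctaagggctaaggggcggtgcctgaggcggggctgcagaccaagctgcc
Mki67: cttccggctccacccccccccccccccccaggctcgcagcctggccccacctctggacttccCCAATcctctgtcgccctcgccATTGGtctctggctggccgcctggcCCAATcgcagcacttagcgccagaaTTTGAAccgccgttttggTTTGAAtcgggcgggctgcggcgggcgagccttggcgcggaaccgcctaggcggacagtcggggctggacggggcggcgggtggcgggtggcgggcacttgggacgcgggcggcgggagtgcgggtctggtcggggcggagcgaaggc
Cdk1: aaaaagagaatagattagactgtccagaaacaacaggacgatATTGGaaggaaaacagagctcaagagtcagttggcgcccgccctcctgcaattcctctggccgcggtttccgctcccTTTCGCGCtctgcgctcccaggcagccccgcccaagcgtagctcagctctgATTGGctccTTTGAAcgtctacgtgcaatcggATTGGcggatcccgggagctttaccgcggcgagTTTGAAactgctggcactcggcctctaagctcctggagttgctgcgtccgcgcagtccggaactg

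Values are the deposited normalized counts, in which the read count of a gene over its exons was scaled by a factor of its library and rounded to a whole number. They sum to 17152972 to 17709731 per control, 17440329 to 17444102 per oxLDL, 22590678 to 26384551 per LPS and 22071853 to 23346854 per oxLDL+LPS library. The spacing of low values puts the depth at an estimated 16726586 to 26178592 counted reads per library. The 37 members together hold 0.0371% to 0.0771% of a library. Macrophage markers (5 of 6 in the table) sum to 225054 to 289425 per library, and the neutrophil list (6 of 6) sums to 31 to 49 without LPS and 79 to 258 with LPS, and the eosinophil and mast cell list to 221 to 428 and 74 to 170. Of these lists S100a8 was called higher and Siglecf lower with LPS, at 31 to 248 and 55 to 383 over the libraries, while Ly6g and Prg2 are at 0 in all 12. Whether those cells have a part in the LPS results was not tested. B cell markers sum to 153 to 333 and T and NK cell markers to 13 to 239. The latter sum is nearly all Lck, at 11 to 234 and the 1 gene of that list called higher with LPS. Cd3d, Cd3e, Cd3g, Trac and Nkg7 are at 0 to 3. Of the neutrophil list S100a9 is at 0 or 1, Mpo at 0 to 5 and Elane at 0 to 4, and Camp is at 0 without LPS and 1 to 10 with it. The oxLDL response markers (4 of 4) sum to 69761 to 79225 in control and 100367 to 147884 in oxLDL libraries. Differences between groups come from limma on log2(value + 1), fitted over genes at 10 or more in at least 3 of the 6 libraries compared, and a gene was called at a Benjamini-Hochberg adjusted p under 0.1 over all genes tested. Fold changes are on that log2(value + 1) scale, which understates the change of low genes. All 37 members passed the filter in every comparison. Libraries that share a replicate number deviated together in all comparisons, so a second fit that blocks on the number is given wherever it changed a call.

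Per kilobase of exon, the members of control PMφs spanned a wide range of levels. Pcna, the sliding clamp of the DNA polymerases, was highest with 1370 normalized counts per kb, followed by Arhgap19 with 377, Cdt1 with 281, Mcm3 with 166, Mcm6 with 162 and E2f1 with 144. The lowest was Cdc6 with 7.27, and apart from Arhgap19 the highest mitotic member was Tpx2 with 52.4. In LPS PMφs Arhgap19 was at 6.79 and E2f2 at 1.78 per kb, whereas Mki67 was at 156 and Ccne1 at 146. Exons of other genes overlap 67.3% of the exon length of Gins2, 17.4% of Ccne2, 12.6% of Mcm7 and 12.5% of Ccna2. The setting of strand in the counting is not stated, so values of these 4 genes are uncertain.

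**Figure D1:**
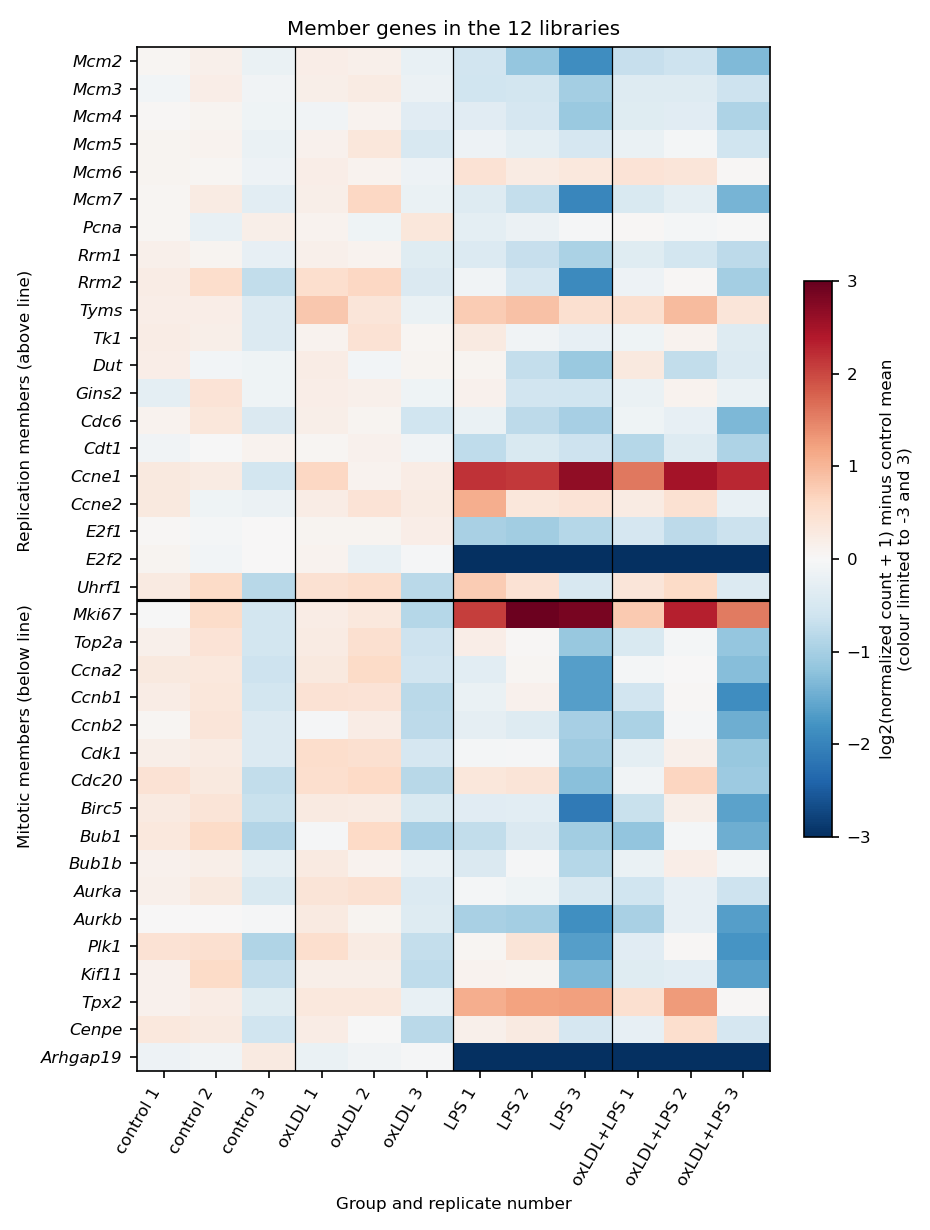
Colour gives log2(normalized count + 1) of each member in each of the 12 libraries minus its mean in the 3 control libraries, limited to −3 and 3, with replication members above the line and mitotic members below it. E2f2 and Arhgap19 are at the lower limit in all 6 libraries with LPS, Ccne1 and Mki67 are red there, and most mitotic members are blue in the libraries of replicate number 3.

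LPS against control asks how the resting PMφ transcriptome responds to the Toll-like receptor 4 agonist. Of 37 members 15 were called, 5 higher (against 31.4% of 13006 genes tested that were called higher) and 10 lower (against 30.3%). The replication members divided into 3 higher (Mcm6, Tyms, Ccne1) and 8 lower (Mcm2, Mcm3, Mcm4, Mcm7, Rrm1, Cdt1, E2f1, E2f2) of 20, and the mitotic members into 2 higher (Mki67, Tpx2) and 2 lower (Aurkb, Arhgap19) of 17. With the replicate block 27 members were called, 6 higher (against 34.6% of all genes) and 21 lower (against 34.1%), and the added 12 were Mcm5, Rrm2, Dut, Cdc6, Ccne2, Ccna2, Ccnb1, Ccnb2, Cdk1, Birc5, Bub1 and Bub1b. That made 4 higher and 12 lower of 20 replication members and 2 higher and 9 lower of 17 mitotic members. Without replicate number 3 the block called 17 members, 4 higher and 13 lower, against 3300 and 3266 of 12297 genes.

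E2f2 and Ccne1 moved furthest among the replication members. E2f2, an activating E2F factor at chr4:136172394-136196057 (GRCm38), had normalized counts of 194, 172 and 185 in control, 196, 156 and 179 in oxLDL, 14, 6 and 6 in LPS and 18, 6 and 10 in oxLDL+LPS libraries, in the order of the replicate numbers. All 6 libraries with LPS were at or below 18, and none of the 6 without LPS was below 156. The mean fell from 184 ± 11.1 in control to 8.67 ± 4.62 in LPS PMφs (SD, n = 3), 20.4-fold lower (log2 fold change −4.35, SE 0.33, limma adjusted p = 2.60e-05). E2f1, the founding member of that family, at chr2:154559407-154569892 (GRCm38), was at 468, 438 and 457 in control, 481, 480 and 518 in oxLDL, 230, 221 and 249 in LPS and 321, 262 and 290 in oxLDL+LPS. It fell 1.94-fold with LPS (log2 fold change −0.96, SE 0.11, limma adjusted p = 0.000179), and the LPS and control libraries did not overlap.

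Ccne1 encodes cyclin E1, the partner of CDK2 at the entry to S phase, at chr7:38097984-38107534 (GRCm38). Its normalized count was 93, 90 and 51 in control, 116, 81 and 88 in oxLDL, 344, 333 and 485 in LPS and 226, 427 and 368 in oxLDL+LPS, so every library with LPS was above every library without it. The mean rose from 78 ± 23.4 to 387 ± 84.8 (SD, n = 3), 5.01-fold (log2 fold change 2.33, SE 0.27, limma adjusted p = 0.000210). Its paralog Ccne2 was at 35, 26 and 25 in control, 33, 38 and 34 in oxLDL, 61, 36 and 38 in LPS and 34, 39 and 24 in oxLDL+LPS. The 3 LPS libraries of Ccne2 lay above the 3 control libraries, with a log2 fold change of 0.61 that was called with the block and not without it (limma adjusted p = 0.0462 and 0.111, 0.0462 to 0.287 over the alternatives).

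The MCM2-7 helicase is a ring of 6 different subunits, and its genes did not move as 1 set. Mcm2 was at 272, 289 and 226 in control, 300, 290 and 224 in oxLDL, 174, 116 and 71 in LPS and 161, 170 and 103 in oxLDL+LPS, and fell 2.30-fold with LPS (log2 fold change −1.20, SE 0.30, limma adjusted p = 0.0113). Mcm3 was at 589, 707 and 572 in control, 703, 735 and 553 in oxLDL, 408, 422 and 304 in LPS and 473, 472 and 404 in oxLDL+LPS, and fell 1.66-fold (log2 fold change −0.73, SE 0.16, limma adjusted p = 0.00540). Mcm7 was at 267, 306 and 205 in control, 290, 395 and 224 in oxLDL, 194, 156 and 65 in LPS and 187, 208 and 97 in oxLDL+LPS, and fell 2.03-fold (log2 fold change −1.02, SE 0.39, limma adjusted p = 0.0553). In each of these subunits every LPS library was below every control library. Mcm4, at 398, 409 and 357 in control, 362, 416 and 307 in oxLDL, 307, 273 and 178 in LPS and 302, 306 and 205 in oxLDL+LPS, fell 1.57-fold (log2 fold change −0.65, SE 0.20, limma adjusted p = 0.0277), also without overlap. Mcm5, at 205, 210 and 170 in control, 213, 245 and 138 in oxLDL, 174, 159 and 137 in LPS and 170, 187 and 127 in oxLDL+LPS, had overlapping groups and a log2 fold change of −0.31 that only the block called. Mcm6 went the other way. It was at 796, 789 and 678 in control, 870, 814 and 673 in oxLDL, 1019, 895 and 939 in LPS and 1004, 968 and 768 in oxLDL+LPS, and rose 1.26-fold (log2 fold change 0.34, SE 0.10, limma adjusted p = 0.0267), with the lowest LPS library at 895 and the highest control library at 796. Leaving out 1 library mattered for 3 subunits. Without LPS replicate 3 the log2 fold change of Mcm7 was −0.55 and that of Mcm4 −0.42, the adjusted p of Mcm7 from limma was 0.125 without control replicate 1 and 0.153 without control replicate 2, and that of Mcm6 was 0.109 without control replicate 3. These fits had no block. In blocked fits without a whole replicate number the adjusted p from limma was 0.000957 to 0.0185 for Mcm7. It was 0.00294 to 0.0399 for Mcm4 and 0.0202 to 0.147 for Mcm6.

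Of the factors that load the helicase, Cdt1 was at 820, 874 and 949 in control, 910, 958 and 818 in oxLDL, 520, 645 and 571 in LPS and 482, 672 and 465 in oxLDL+LPS. Cdt1 delivers MCM2-7 to origins together with CDC6, and it fell 1.52-fold with LPS (log2 fold change −0.61, SE 0.11, limma adjusted p = 0.00268). Cdc6 was low, at 40, 47 and 27 in control, 42, 39 and 24 in oxLDL, 32, 21 and 18 in LPS and 34, 31 and 14 in oxLDL+LPS, and its log2 fold change of −0.67 was called with the block only. Gins2, a subunit of the GINS complex of the moving helicase, ranged from 35 to 72 over the 12 libraries and was called in no comparison. Pcna was at 3379, 2800 and 3688 in control, 3523, 2995 and 4105 in oxLDL, 2662, 2909 and 3177 in LPS and 3353, 3115 and 3265 in oxLDL+LPS. Its groups overlapped (log2 fold change −0.17, SE 0.12, limma adjusted p = 0.292), and it had the highest level per kb of the list. Uhrf1, which carries DNA methylation through replication, was at 150, 186 and 70 in control, 171, 182 and 71 in oxLDL, 214, 168 and 89 in LPS and 161, 187 and 94 in oxLDL+LPS and was not called (log2 fold change 0.24, SE 0.43, limma adjusted p = 0.675).

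Among the enzymes of nucleotide supply, both directions occurred. Rrm1 encodes the large subunit of ribonucleotide reductase and was at 785, 753 and 596 in control, 791, 765 and 546 in oxLDL, 534, 435 and 366 in LPS and 553, 484 and 412 in oxLDL+LPS. It fell with LPS (log2 fold change −0.68, SE 0.17, limma adjusted p = 0.0102), and the groups did not overlap. Rrm2, the small subunit of the S phase enzyme, was at 123, 151 and 62 in control, 148, 162 and 78 in oxLDL, 98, 74 and 27 in LPS and 95, 108 and 51 in oxLDL+LPS, and its libraries of replicate number 3 were the lowest of each group. The log2 fold change of Rrm2 was −0.84 and was called with the block only, as was that of Dut (−0.58), the dUTPase gene. Dut was at 86, 71 and 68 in control, 87, 70 and 79 in oxLDL, 79, 45 and 34 in LPS and 91, 44 and 56 in oxLDL+LPS. Tyms, the thymidylate synthase gene, rose instead. It was at 73, 73 and 47 in control, 111, 82 and 55 in oxLDL, 108, 116 and 89 in LPS and 89, 123 and 82 in oxLDL+LPS, 1.63-fold higher with LPS (log2 fold change 0.71, SE 0.23, limma adjusted p = 0.0321). Tk1, the thymidine kinase of S phase, was at 111, 107 and 71 in control, 102, 127 and 98 in oxLDL, 114, 88 and 79 in LPS and 87, 102 and 72 in oxLDL+LPS, and its LPS and control libraries overlapped (log2 fold change −0.03, SE 0.24, limma adjusted p = 0.927).

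**Figure D2:**
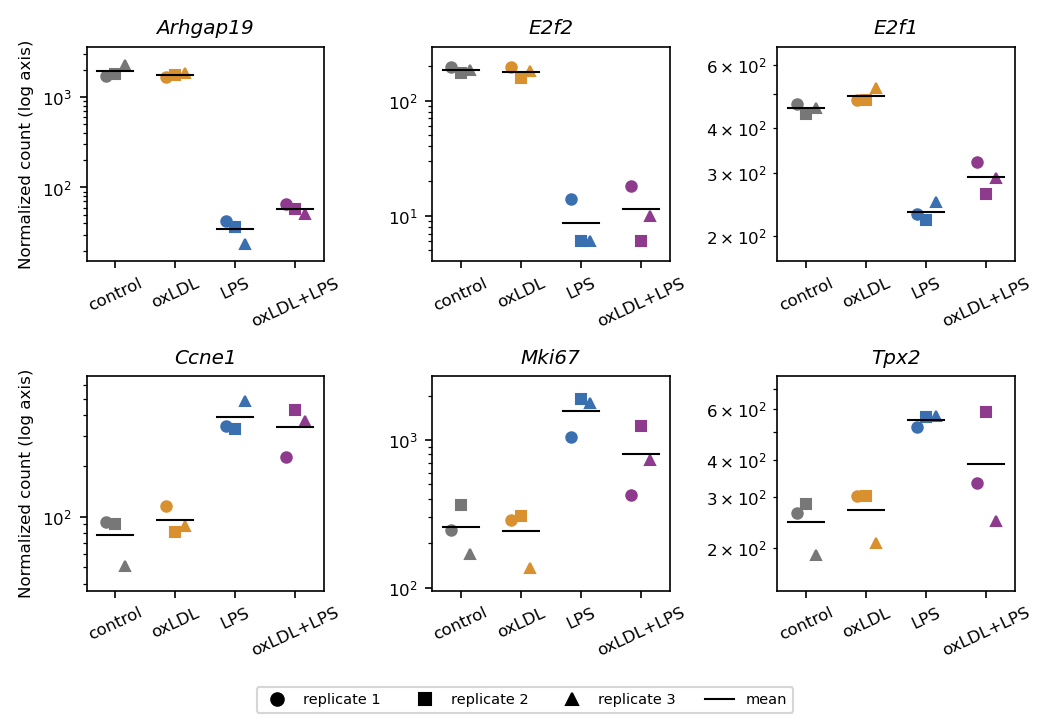
Normalized counts on log axes in the 12 libraries for the 6 members Arhgap19, E2f2, E2f1, Ccne1, Mki67 and Tpx2, with a symbol for each replicate number and a line at the group mean (n = 3). Arhgap19 and E2f2 are 54.9-fold and 20.4-fold lower with LPS and lower in oxLDL+LPS than in oxLDL libraries, and Mki67 is higher in the LPS libraries (1046 to 1892) than in the oxLDL+LPS libraries of the same number.

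Arhgap19 showed the widest change of the list. It encodes a RhoA GTPase-activating protein that acts in cytokinesis, at chr19:41766588-41802047 (GRCm38). Its normalized count was 1702, 1780 and 2283 in control, 1654, 1776 and 1861 in oxLDL, 43, 37 and 24 in LPS and 65, 58 and 51 in oxLDL+LPS. The lowest library without LPS stood at 1654 and the highest with LPS at 65. The mean fell from 1922 ± 315 in control to 34.7 ± 9.71 in LPS PMφs (SD, n = 3), 54.9-fold lower (log2 fold change −5.78, SE 0.23, limma adjusted p = 8.47e-07). Per kb it was the most abundant mitotic member in control PMφs, and its libraries of replicate number 3 were the highest of their group in both groups without LPS.

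Mki67 encodes Ki-67, the protein of the mitotic chromosome surface that is used to mark cycling cells, at chr7:135689784-135716361 (GRCm38). It was at 246, 362 and 169 in control, 286, 306 and 136 in oxLDL, 1046, 1892 and 1783 in LPS and 426, 1242 and 732 in oxLDL+LPS. The mean rose from 259 ± 97.2 to 1574 ± 460.2 (SD, n = 3), 6.14-fold (log2 fold change 2.62, SE 0.31, limma adjusted p = 0.000273). Tpx2, a spindle assembly factor that activates Aurora A, at chr2:152847964-152895321 (GRCm38), rose with it. Its normalized count was 264, 282 and 189 in control, 301, 302 and 208 in oxLDL, 518, 562 and 565 in LPS and 335, 586 and 247 in oxLDL+LPS, 2.26-fold higher with LPS (log2 fold change 1.18, SE 0.16, limma adjusted p = 0.000573). No other mitotic member was called higher in either comparison of LPS, with or without the block.

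Aurkb encodes Aurora B, the kinase of the chromosomal passenger complex, and was at 75, 75 and 72 in control, 90, 79 and 56 in oxLDL, 37, 36 and 20 in LPS and 37, 62 and 23 in oxLDL+LPS. It fell 2.43-fold with LPS (log2 fold change −1.28, SE 0.27, limma adjusted p = 0.00539), and the 3 LPS libraries were below the 3 control libraries. Birc5, survivin of the same complex, was at 62, 67 and 32 in control, 62, 61 and 37 in oxLDL, 40, 41 and 11 in LPS and 32, 58 and 16 in oxLDL+LPS with a log2 fold change of −0.92. The mitotic cyclins and their kinase came next. Ccna2, cyclin A2 of S and G2 phase, was at 128, 129 and 67 in control, 126, 154 and 69 in oxLDL, 83, 107 and 32 in LPS and 99, 104 and 42 in oxLDL+LPS. Ccnb1, cyclin B1 of mitotic entry, was at 105, 115 and 61 in control, 123, 120 and 51 in oxLDL, 78, 99 and 28 in LPS and 60, 93 and 24 in oxLDL+LPS. Ccnb2, its paralog, was at 53, 66 and 38 in control, 50, 60 and 29 in oxLDL, 42, 39 and 25 in LPS and 26, 50 and 18 in oxLDL+LPS. Cdk1, the kinase that these cyclins activate, was at 106, 111 and 70 in control, 136, 132 and 66 in oxLDL, 90, 92 and 44 in LPS and 76, 104 and 42 in oxLDL+LPS. The LPS and control libraries of each of these genes overlapped, and within a replicate number the LPS library was below the control library in all 3 pairs for Ccna2, Ccnb1, Ccnb2, Cdk1 and Birc5. The fit with the block uses the same pairs, so this order is not separate from its calls.

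The spindle checkpoint kinase gene Bub1 was at 61, 73 and 26 in control, 48, 75 and 24 in oxLDL, 29, 36 and 23 in LPS and 21, 47 and 17 in oxLDL+LPS. Bub1b, which encodes BUBR1 of the same checkpoint, was at 196, 203 and 147 in control, 217, 195 and 155 in oxLDL, 133, 177 and 99 in LPS and 158, 206 and 171 in oxLDL+LPS. With the block Birc5, Cdk1, the 3 cyclin genes and both checkpoint genes were called lower with LPS, at log2 fold changes of −0.92 for Birc5, −0.74 for Bub1, −0.64 for Ccna2, −0.58 for Ccnb1, −0.55 for Ccnb2, −0.44 for Bub1b and −0.39 for Cdk1. For the 12 members that only the block called in this comparison, the adjusted p from limma was 0.0116 to 0.0892 with the block and 0.111 to 0.356 without it, in a range of 0.00348 to 0.929 over all alternatives. The other mitotic members were not called in this comparison. Top2a, the topoisomerase of chromosome condensation, was at 325, 389 and 198 in control, 346, 407 and 191 in oxLDL, 335, 299 and 133 in LPS and 212, 282 and 130 in oxLDL+LPS (log2 fold change −0.30). Plk1, the polo-like kinase of mitotic entry, and Kif11, the motor that separates spindle poles, had log2 fold changes of −0.40 and −0.38. Cdc20, an activator of the anaphase-promoting complex, Aurka and Cenpe, a kinetochore motor, were at −0.17, −0.22 and −0.04.

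**Figure D3:**
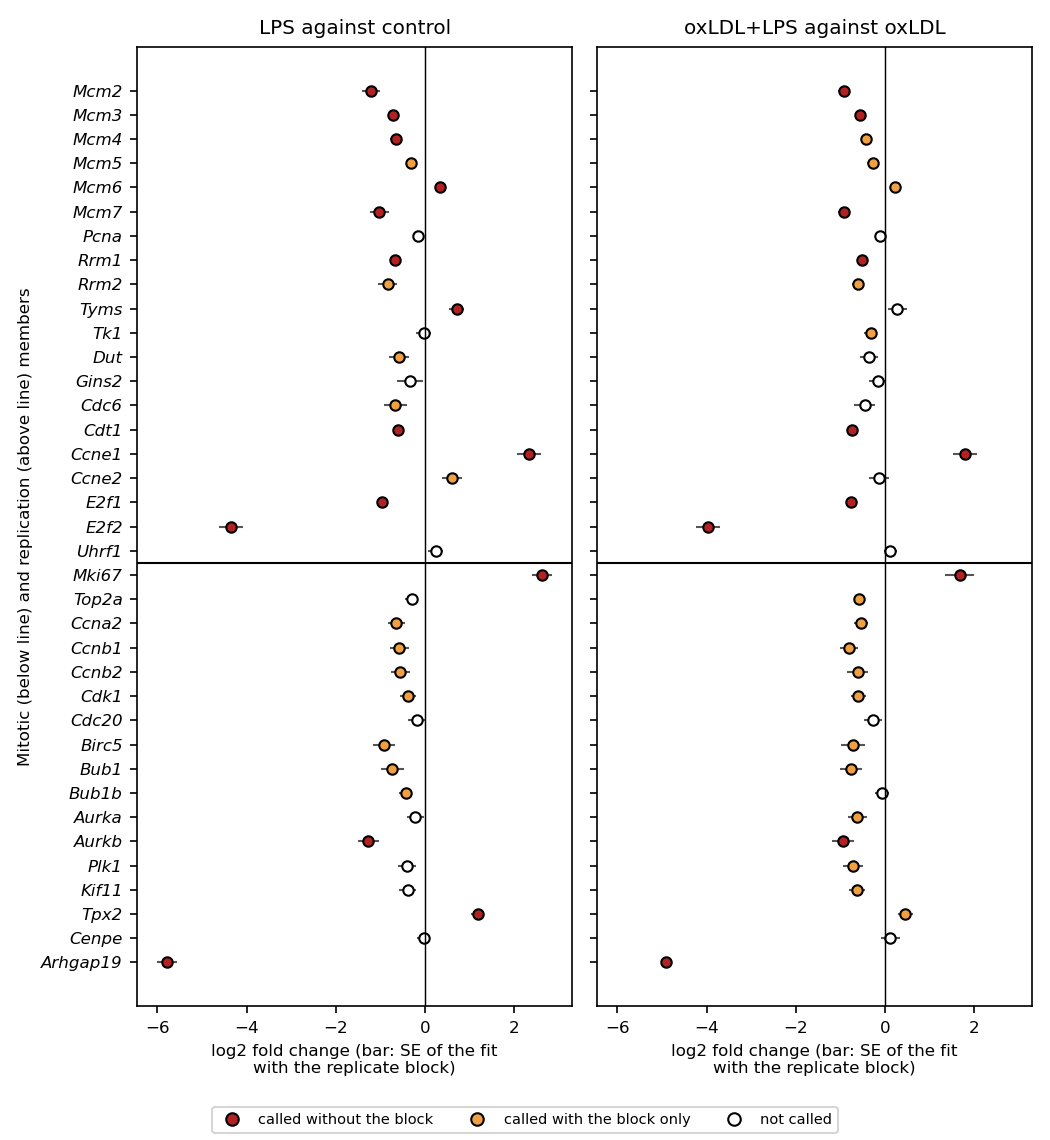
Log2 fold change of each member for LPS against control (left) and oxLDL+LPS against oxLDL (right), with the standard error of the fit with the replicate block as a bar, replication members above the line and mitotic members below it. Filled red points were called without the block (15 left, 11 right), orange points with the block only (12 left, 16 right), and the called points to the right of 0 are Ccne1, Mki67, Tpx2 and Mcm6 in both panels and Tyms and Ccne2 on the left only.

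As classes, the replication members had a median log2 fold change of −0.60 and the mitotic members of −0.40 with LPS, beside −0.0007 over all genes tested, and 15 of 20 and 15 of 17 were lower, called or not, beside 6508 of 13006 genes. By replicate number the medians were −0.32, −0.61 and −0.63 for the replication members and −0.33, −0.27 and −0.58 for the mitotic members, so the order of the classes was within the spread between numbers. Without LPS replicate 3 the medians were −0.31 and −0.04. The mitotic median was −0.74 without control replicate 3, −0.63 without LPS replicate 1, −0.64 without LPS replicate 2 and −0.27 without control replicate 2. Each of these fits leaves a replicate number with 1 library only. With whole numbers left out, the blocked medians were −0.73 and −0.47 (number 1), −0.49 and −0.46 (number 2) and −0.43 and −0.32 (number 3). Among the replication members with E2F-type letters, the log2 fold changes ran from −4.35 for E2f2 to 0.34 for Mcm6, with −1.02 for Mcm7, −0.73 for Mcm3, −0.67 for Cdc6, −0.61 for Cdt1 and −0.31 for Mcm5. Among the mitotic members with CHR-type letters they ran from −5.78 for Arhgap19 to 2.62 for Mki67.

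Mki67 can be set beside the strength of the LPS response in each library. The 6 markers of that response (Il6, Il1b, Nos2, Tnf, Il12b and Ptgs2) summed to 119493, 232686 and 350568 in LPS libraries 1, 2 and 3, to 34797, 132269 and 100592 in oxLDL+LPS libraries and to 118 to 167 in the 6 libraries without LPS. Replicate number 1 had the lowest sum in both groups with LPS, and it also had the lowest Mki67 in both. The order did not match throughout. In LPS libraries number 3 had the highest sum, but Mki67 was 1783 there and 1892 in number 2. In oxLDL+LPS libraries number 2 was highest in both. Whether this response has a part in the levels of Mki67 was not tested.

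oxLDL+LPS against oxLDL asks the same of PMφs that carry oxLDL. Here 11 members were called, 2 higher (Ccne1 and Mki67, against 28.1% of 12883 genes called higher) and 9 lower (Mcm2, Mcm3, Mcm7, Rrm1, Cdt1, E2f1, E2f2, Aurkb and Arhgap19, against 26.3% called lower). All 11 are among the 15 called without oxLDL, in the same direction, which is 73.3% of those 15, and Mcm4, Mcm6, Tyms and Tpx2 were the other 4. The interaction, which tests whether the LPS responses differ, was called for no gene. With the block 27 members were called, 4 higher (against 32% of all genes) and 23 lower (against 31.4%), and 22 of them were also among the 27 called with the block in LPS against control, 81.5% of each. The matching overlap over all genes is not given here, so these overlaps are not read as a trait of the members. The block called 2 replication members higher and 11 lower, and 2 mitotic members higher and 12 lower. Without oxLDL replicate 3 the fit without the block called 18 members, for which the share of all genes is not given here. Without replicate number 3 the block called 16, 2 higher and 14 lower, against 2988 and 2741 of 12239 genes.

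Arhgap19 fell from 1764 ± 104 in oxLDL to 58 ± 7 in oxLDL+LPS PMφs (SD, n = 3), 30.0-fold lower (log2 fold change −4.91, SE 0.12, limma adjusted p = 3.53e-07). E2f2 fell 15.6-fold (log2 fold change −3.96, SE 0.37, limma adjusted p = 0.000130), from 177 ± 20.1 to 11.3 ± 6.11 (SD, n = 3), and E2f1 fell 1.70-fold (log2 fold change −0.76, SE 0.11, limma adjusted p = 0.00120). Ccne1 rose 3.48-fold (log2 fold change 1.80, SE 0.26, limma adjusted p = 0.00117) and Mki67 3.18-fold (log2 fold change 1.67, SE 0.44, limma adjusted p = 0.0171), the latter from 243 ± 92.9 to 800 ± 412 (SD, n = 3). For each of these genes the libraries of the groups compared did not overlap. The remaining calls were smaller, with log2 fold changes of −0.92 for Mcm2, −0.92 for Mcm7, −0.75 for Cdt1, −0.55 for Mcm3, −0.53 for Rrm1 and −0.95 for Aurkb. The calls of Mcm7, Rrm1 and Aurkb were lost without oxLDL replicate 1, oxLDL replicate 2 or oxLDL+LPS replicate 3, with adjusted p from limma of 0.110 to 0.167 for Mcm7, 0.123 to 0.136 for Rrm1 and 0.179 to 0.205 for Aurkb. That of Aurkb was also lost without oxLDL+LPS replicate 1 (0.139) and with no filter on low values (0.114), and without oxLDL+LPS replicate 3 the log2 fold change was −0.58 for Mcm7 and −0.61 for Aurkb. These losses were in fits without the block. With it, the adjusted p from limma was 0.00207 for Mcm7, 0.00319 for Rrm1 and 0.0171 for Aurkb. Without a whole replicate number the blocked fits gave 0.000525 to 0.0200, 0.00519 to 0.0219 and 0.00878 to 0.103.

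With the block 12 of 17 mitotic members were called lower in oxLDL+LPS than in oxLDL PMφs, against 31.4% of all genes. Among them were cyclins, kinases, a checkpoint gene and a spindle motor. Without the block 2 mitotic members were called lower, against 26.3% of all genes. Blocked fits without replicate number 1, 2 or 3 called 8, 10 and 6 lower, against 3689 of 12096, 3307 of 12158 and 2741 of 12239 genes. The mitotic genes that the block added were Top2a, Ccna2, Ccnb1, Ccnb2, Cdk1, Birc5, Bub1, Aurka, Plk1 and Kif11, at log2 fold changes of −0.59, −0.54, −0.81, −0.61, −0.60, −0.72, −0.76, −0.62, −0.71 and −0.63. Aurka, which encodes the Aurora kinase of the spindle poles, was at 66, 73 and 43 in control, 78, 81 and 44 in oxLDL, 57, 54 and 42 in LPS and 39, 50 and 38 in oxLDL+LPS. Plk1 was at 101, 103 and 39 in control, 106, 88 and 45 in oxLDL, 77, 97 and 23 in LPS and 58, 76 and 21 in oxLDL+LPS. Kif11 was at 91, 123 and 50 in control, 93, 93 and 48 in oxLDL, 89, 87 and 32 in LPS and 64, 66 and 26 in oxLDL+LPS. In each of the added mitotic genes the oxLDL+LPS library was below the oxLDL library in all 3 replicate numbers. The blocked fit that picked these genes uses the same pairs, so this order is no separate evidence. Tpx2 was called higher with the block (0.45), and of the replication members Mcm4 (−0.43), Mcm5 (−0.28), Rrm2 (−0.61) and Tk1 (−0.33) were called lower and Mcm6 (0.22) higher. For the 16 members called with the block only, the adjusted p from limma was 0.00391 to 0.0994 with the block and 0.110 to 0.404 without it, in a range of 0.00378 to 0.812 over all alternatives. The class medians were −0.39 for the replication and −0.61 for the mitotic members, beside −0.02 over all genes. They were −0.32, −0.41 and −0.47 against −0.83, −0.34 and −0.64 by replicate number, and −0.22 and −0.25 without oxLDL+LPS replicate 3. Without oxLDL replicate 3 the mitotic median was −0.92, and without oxLDL replicate 2 it was −0.40. With whole numbers left out, the blocked medians were −0.52 and −0.54 (number 1), −0.38 and −0.70 (number 2) and −0.33 and −0.53 (number 3).

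oxLDL against control addresses lipid loading without LPS. No member was called with or without the block, and the number with an unadjusted p under 0.05 was 0 without and 3 with the block (Mcm7, Pcna and Tyms). Over all 12734 genes 0% were called by limma without the block (379 had an unadjusted p under 0.05). With the block 1.79% were called higher and 2.91% lower (2044 had an unadjusted p under 0.05). Of all 12734 genes 6142 were higher, called or not, and their median was −0.005. The median log2 fold change was 0.07 for the replication members, of which 15 of 20 were higher, and 0.02 for the mitotic members, of which 10 of 17 were higher. These medians ran from −0.003 to 0.18 and from −0.27 to 0.29 when 1 library was left out. Mcm7, at 267, 306 and 205 in control and 290, 395 and 224 in oxLDL libraries, was called without replicate number 3 in the fit with the block. That fit called 1283 of 12434 genes.

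oxLDL+LPS against LPS asks whether oxLDL alters the LPS response. Without the block 0% of 12769 genes were called by limma, and 3 members (E2f1, Mki67 and Arhgap19) and 890 genes had an unadjusted p under 0.05. With the block 4.41% of genes were called higher and 8.75% lower, and 3 members were called, Mki67, Tpx2 and Arhgap19. With median-of-ratios scaling added to the block they were E2f1, Mki67 and Arhgap19, and Tpx2 was not called. Mki67 was lower with oxLDL in each replicate number, at 426 against 1046, 1242 against 1892 and 732 against 1783, a log2 fold change of −1.06 (limma with the block, SE 0.13, adjusted p = 0.00521, 1.07e-32 to 0.999 over the alternatives). Tpx2 was at 335 against 518, 586 against 562 and 247 against 565, a log2 fold change of −0.59 (limma with the block, SE 0.19, adjusted p = 0.0934, 4.57e-12 to 0.999 over the alternatives). Arhgap19 was higher with oxLDL in each number, at 65 against 43, 58 against 37 and 51 against 24, a log2 fold change of 0.76 (limma with the block, SE 0.21, adjusted p = 0.0613, 0.0279 to 0.999 over the alternatives). The lowest of these p come from fits without 1 replicate number, in which 4 libraries leave each gene 1 residual degree of freedom. Without replicate number 3 none of the members was called, without number 1 only Mki67 was, and without number 2 the block called 8 members. Over all genes these 3 fits called 0 of 12436, 70 of 12250 and 2945 of 12317.

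The interaction of oxLDL and LPS, fitted on all 12 libraries, was called for 0% of 13465 genes with or without the block (416 and 967 genes had an unadjusted p under 0.05). Its smallest p among the members was 0.00841 for Arhgap19 (coefficient 0.87, SE 0.27, limma adjusted p = 0.9999), and for Mki67 the coefficient was −0.95 (SE 0.61, limma adjusted p = 0.9999). The class medians of oxLDL+LPS against LPS were 0.12 for the replication and −0.16 for the mitotic members, beside −0.01 over all genes. By replicate number they were −0.04, 0.16 and 0.12 against −0.40, 0.18 and −0.07, so neither class moved in 1 direction in all 3. When 1 library was left out the medians ran from −0.07 to 0.26 and from −0.43 to 0.25.

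A difference by replicate number ran through all 4 groups. Library 3 was the lowest of its group in all 4 groups for 13 of 17 mitotic members (76.5%) and 11 of 20 replication members (55%), against 7.86% of 13465 genes. The exceptions among the mitotic members were Mki67, Bub1b, Tpx2 and Arhgap19. Replication members with this order were Mcm2, Mcm3, Mcm4, Mcm5, Mcm7, Rrm1, Rrm2, Tyms, Tk1, Cdc6 and Uhrf1. The median difference of library 3 from the mean of libraries 1 and 2, on the log2 scale, was −0.84 in control, −0.94 in oxLDL, −0.84 in LPS and −0.97 in oxLDL+LPS PMφs for the mitotic members and −0.27, −0.33, −0.39 and −0.35 for the replication members. Over all genes it was 0.02, 0.01, 0.06 and 0.02. Cdc20 was at 83, 75 and 36 in control, 86, 93 and 34 in oxLDL, 77, 80 and 25 in LPS and 56, 96 and 28 in oxLDL+LPS. Cenpe was at 146, 142 and 77 in control, 136, 116 and 66 in oxLDL, 129, 140 and 82 in LPS and 99, 165 and 82 in oxLDL+LPS. Mesothelial and fibroblast markers (7 of 7 in the table, none called in any comparison) were also low in these libraries, with sums of 22306, 15384 and 5059 in control, 18302, 12890 and 5256 in oxLDL, 28756, 13500 and 5680 in LPS and 16430, 14434 and 4793 in oxLDL+LPS. Most of each sum was Col1a1 and Col1a2. The mesothelial gene Msln departed from that order, at 11, 8 and 11 in oxLDL, 12, 7 and 8 in LPS and 13, 3 and 11 in oxLDL+LPS. Sums of the large peritoneal macrophage list (6 of 6) were lowest in library 3 too. They were 507, 752 and 466 in control, 498, 635 and 469 in oxLDL, 1081, 848 and 717 in LPS and 752, 819 and 615 in oxLDL+LPS. Gata6 of that list shared the order, and 3 of its genes were called higher with LPS in either comparison of LPS. Whether the cells of either list have a part in the mitotic transcripts was not tested.

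**Figure D4:**
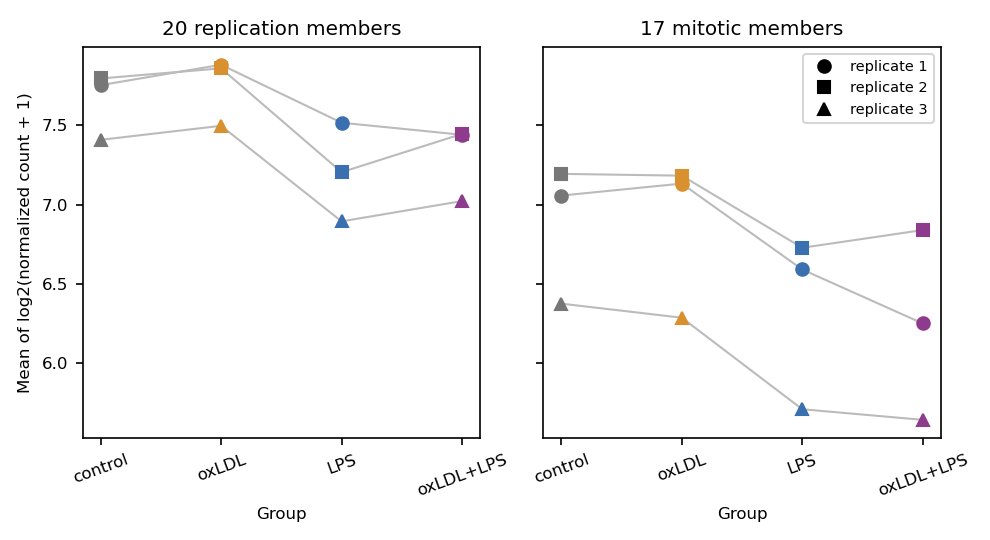
Mean of log2(normalized count + 1) over the 20 replication members (left) and the 17 mitotic members (right) in each library, with lines joining libraries of the same replicate number. Library 3 is the lowest in every group of both panels, and the LPS library of a number lies below its control library in all 3 numbers.

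The mean of log2(normalized count + 1) over a class gives the contrast of replication and mitotic members in each library. For replication members it was 7.75, 7.79 and 7.41 in control, 7.88, 7.86 and 7.50 in oxLDL, 7.52, 7.20 and 6.89 in LPS and 7.44, 7.45 and 7.02 in oxLDL+LPS libraries. For mitotic members it was 7.06, 7.19 and 6.38, then 7.13, 7.18 and 6.29, then 6.59, 6.73 and 5.71, and then 6.25, 6.84 and 5.64. The difference of the classes was 0.70, 0.60 and 1.03 in control and 0.75, 0.68 and 1.21 in oxLDL libraries. It was 0.92, 0.48 and 1.18 in LPS and 1.19, 0.61 and 1.38 in oxLDL+LPS libraries, so all 4 groups overlapped and library 3 had the largest difference in each of them. Within replicate numbers 1, 2 and 3 the difference was larger with oxLDL than without it, by 0.05, 0.08 and 0.18 for oxLDL against control and by 0.26, 0.13 and 0.19 for oxLDL+LPS against LPS. With LPS it moved by 0.23, −0.12 and 0.15 against control and by 0.44, −0.07 and 0.17 against oxLDL, so the direction was not shared by all 3 numbers. No test was made of these differences. The means include Arhgap19, which changed by −5.27, −5.55 and −6.51 on the log2 scale with LPS against control in numbers 1, 2 and 3. E2f2, on the replication side, changed by −3.70, −4.63 and −4.73. Class medians of the same pairs were −0.32, −0.61 and −0.63 for replication and −0.33, −0.27 and −0.58 for mitotic members. For oxLDL+LPS against LPS, the class medians of number 2 were 0.163 for replication and 0.175 for mitotic members, opposite to the order of the means. The replication median was the higher in the other numbers, and in all 3 for oxLDL against control. How far Arhgap19 and E2f2 set the direction was not tested.

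Other genes of the cell cycle, from lists of 34 regulators, 40 replication genes and 43 mitosis genes (41 in the table), place these members in context. With LPS, 14 of 34 regulators were called higher and 11 lower, against 31.4% and 30.3% of all genes tested. Ccnd2, the cyclin D2 gene, was at 79, 60 and 53 in control, 95, 55 and 69 in oxLDL, 5890, 7637 and 11990 in LPS and 1657, 5346 and 3193 in oxLDL+LPS, a log2 fold change of 6.99 (SE 0.26, limma adjusted p = 6.99e-07). Cdkn1a, which encodes the CDK inhibitor p21, was at 1006, 1174 and 1013 in control, 1024, 1341 and 1214 in oxLDL, 17434, 23078 and 29165 in LPS and 14773, 22513 and 25056 in oxLDL+LPS, a log2 fold change of 4.42 (SE 0.18, limma adjusted p = 1.06e-06). Both rose. Of the retinoblastoma family, Rbl1 (p107) changed by 2.34 and Rb1 by −1.38 on the log2 scale, and Rbl2 (p130) by −1.03. Of the E2F family, E2f8, a repressor, changed by 1.93, and E2f3, E2f4 and E2f5 by 0.51, 0.58 and 1.58, while E2f6 changed by −0.84. Cdk2 and Cdk4 changed by −1.01 and −0.75, and Cdk6 by 1.42. Each of these was called without the block (limma adjusted p = 0.00489 or below).

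Of the 40 other replication genes 7 were called higher and 20 lower with LPS, against the same 31.4% and 30.3%. Gmnn, which encodes the CDT1 inhibitor geminin, changed by −2.22 on the log2 scale, the ligase gene Lig1 by −1.37 and the clamp loader gene Rfc2 by −1.25, whereas another clamp loader gene, Rfc3, rose 3.04-fold and the polymerase α gene Pola2 3.00-fold. Genes of nucleotide balance were among the calls toward higher values, with 2.92 for the deoxycytidine kinase gene Dck and 3.00 for the dNTPase gene Samhd1. Of the 41 other mitosis genes 4 were called higher and 15 lower, against 31.4% and 30.3% again. The phosphatase gene Cdc25b changed by −3.36, the midzone motor gene Kif23 by −2.21 and the centromeric histone gene Cenpa by −1.95, and the securin gene Pttg1 by 2.66 and the checkpoint gene Mad2l1 by 0.53. All of these were called without the block.

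In oxLDL+LPS against oxLDL the 3 lists had 13, 6 and 4 genes called higher and 12, 15 and 14 called lower, against 28.1% and 26.3% of all genes. Their medians were 0.11 for regulators, −0.31 for replication and −0.59 for mitosis genes, beside 0.25, −0.34 and −0.65 in LPS against control. With the block the mitosis list had 24 called lower in LPS against control and 25 in oxLDL+LPS against oxLDL, against 34.1% and 31.4% of all genes. In the comparisons of oxLDL none was called without the block (4, 0 and 2 genes of the lists had an unadjusted p under 0.05 in oxLDL+LPS against LPS, and 1, 2 and 0 in oxLDL against control). With the block oxLDL against control called E2f6, Myc and Cdkn1c higher, against 1.79% of all genes. In oxLDL+LPS against LPS the block called 2 regulators higher and 9 lower of 34, Dck higher of the replication list, and Incenp higher and Pttg1 and Smc4 lower of the mitosis list, against 4.41% of all genes called higher and 8.75% lower. Ccnd2 was lower in each number, with a log2 fold change of −1.42 (limma with the block, SE 0.22, adjusted p = 0.00990, 2.17e-73 to 0.999 over the alternatives). E2f8 had a log2 fold change of −0.63 there (limma with the block, SE 0.11, adjusted p = 0.0133, 7.41e-09 to 0.999 over the alternatives).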

How the data were processed

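Poly(A) RNA of the 12 PMφ libraries was sequenced. Per the labels and the study's methods, the authors trimmed reads with Trimmomatic 0.32, aligned them to mm10 with STAR 2.5.1b, counted them over GENCODE exons with featureCounts and normalized them with DESeq2. The deposited values are a signal, gene counts divided by size factors and rounded. The strand setting is not given in the sources used here. Whole reads were not recovered for nearly all genes, so no count test was run.

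The table holds 43278 rows, of which 25 with date-like symbols were left out (at most 0.165% of a library) and 18273 are at 0 in all libraries. Genes at 10 or more in at least 3 of the libraries compared were fitted with limma 3.58.1 (R 4.3.3, empirical Bayes with a trend) on log2(value + 1), each comparison on its own 6 libraries and the interaction on 12. P-values were adjusted by Benjamini-Hochberg over all genes tested, with calls under 0.1. The script was tested on simulated data. A second fit took the replicate number as a block. Deviations from the group means correlated within a number at 0.330 to 0.733 over 11170 genes in every comparison, and the cells of all groups came from a shared pool, so the numbers were taken as pairs. Other alternatives were a pseudocount of 10, no filter, median-of-ratios scaling, all 12 libraries in 1 fit and leaving out libraries. Exon lengths and positions are from GENCODE, promoters from RefSeq. Python 3.11.15 with numpy 2.4.6 and pandas 2.3.3 was used.

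All 37 members are accounted for. Values per library are given for members called in any comparison and for the leading member of each role without a call, promoters for the 2 replication and 2 mitotic members with the smallest p in LPS against control (Ccne1 in place of E2f1, whose window lies inside the gene, and Cdk1 added, both choices made after the values were seen), and other cell cycle genes only where called. The members and lists were chosen with earlier results of these data known.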

Additional observations from a re-analysis of the deposited data

Results flagged for a closer look

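In 2 members every pair of libraries moved one way with oxLDL in the absence of LPS and the opposite way in its presence. Some of these moves were very small, such as 1780 against 1776 for Arhgap19 and 43 against 44 for Aurka in control against oxLDL libraries. The share of all genes with this pattern is not given here. For Arhgap19 the log2 fold change was −0.11 for oxLDL against control (lower in 3 of 3 replicate numbers) and 0.76 for oxLDL+LPS against LPS (higher in 3 of 3). The difference was tested as the interaction term, which had an unadjusted p of 0.00841 from limma over all genes and an adjusted p of 0.9999, with an SE of 0.27 around a coefficient of 0.87. For Aurka the log2 fold change was 0.14 for oxLDL against control (higher in 3 of 3) and −0.26 for oxLDL+LPS against LPS (lower in 3 of 3), with an interaction coefficient of −0.40 and an unadjusted p of 0.329 from limma (adjusted p = 0.9999). Neither interaction passed the threshold, and both oxLDL effects of Aurka were uncalled with and without the replicate block.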

How the results depend on the processing

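With the replicate number as a block, members called rose from 15 to 27 in LPS against control, from 11 to 27 in oxLDL+LPS against oxLDL and from 0 to 3 in oxLDL+LPS against LPS, and with median-of-ratios scaling added they were 27, 27 and 3, the last with E2f1 in place of Tpx2. Blocked fits without replicate number 1 called 26, 24 and 1 members in these comparisons, against 8074 of 12075, 7536 of 12096 and 70 of 12250 genes. Without number 2 they called 23, 21 and 8, against 7380 of 12165, 6807 of 12158 and 2945 of 12317. Without number 3 they called 17, 16 and 0, against 6566 of 12297, 5729 of 12239 and 0 of 12436. In oxLDL against control they then called 1 member, against 1283 of 12434 genes. In oxLDL against control and in the interaction the block changed no call of a member, while over all genes it took the calls in oxLDL against control from 0 to 599. The blocked median of the replication members without number 1 was 0.010 in oxLDL against control and −0.52 in oxLDL+LPS against oxLDL. Leaving out 1 library without the block gave 14 to 19 calls in LPS against control and 8 to 18 in oxLDL+LPS against oxLDL. The shares of all genes called in those fits are not given here. Medians of the replication and mitotic members then ran from −0.0026 to 0.18 and −0.27 to 0.29 in oxLDL against control, from −0.69 to −0.31 and −0.74 to −0.043 in LPS against control, from −0.55 to −0.22 and −0.92 to −0.25 in oxLDL+LPS against oxLDL, and from −0.068 to 0.26 and −0.43 to 0.25 in oxLDL+LPS against LPS. No called value reversed, and each of these fits has fewer libraries. Each also leaves a replicate number with 1 library of its pair, and library 3 was low for most mitotic members in every group. A pseudocount of 10, median-of-ratios scaling, no filter and all 12 libraries in 1 fit left the counts between 15 and 16 and between 10 and 12. The deposited values were already scaled by size factors. Median-of-ratios factors found from them were 0.9967 (LPS replicate 1) to 1.0041 (oxLDL+LPS replicate 1), so that setting could change little. Scaling to library totals, which are higher with LPS, was not tried and would shift fold changes with LPS toward lower values. Many mitotic members lie under 100 normalized counts, where rounding and counting error limit what 3 libraries per group can show.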
